A study of Mus musculus with 8 samples.

Results

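The cells described here are those of the 2 single-cell libraries labelled GFP+, kept where a cell had at least 1000 counts. That left 2652 cells, 1419 in GFP+ library 1 and 1233 in GFP+ library 2, of 7400 cells in the whole series and of 3400 with this label. They come from Tri-PyMT cells, a culture started from a metastatic breast tumor of a mouse that carries 3 transgenes: MMTV-PyMT, Fsp1-cre and Rosa26mT/mG. All groups of the series share these alleles and the same medium, and differ in the fluorescence by which they were sorted. Each sorted population was run on a Drop-seq device, where droplets bring cells and beads together so that each cell's polyadenylated RNA takes up a barcode of its own. No drug or time course is named in the labels, and whether the GFP+ libraries came from separate cultures is not stated. Agreement between the 2 libraries therefore measures at least technical repeatability.

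MMTV-PyMT drives the polyoma middle T oncogene in mammary epithelium. In the Rosa26mT/mG allele a red membrane protein is made until Cre removes its cassette, after which a green one is made. Cre is here under the promoter of Fsp1, also called S100a4, a gene of fibroblasts and of tumour cells with mesenchymal features. Carcinoma cells can move between an epithelial state, marked by Epcam and keratins, and a mesenchymal state, marked by vimentin and matrix genes, and intermediate states hold both. Cells of one culture also differ in cell cycle phase, in translation capacity and in stress, and these differences appear as groups of transcripts that go up and down together from cell to cell.

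The 2 reporter rows of the table go against the sort label. In the libraries labelled GFP+, CUSTOM_RFP stood at 2949 and 3093 CPM (a gene's share of its library's counts, scaled to the same total in every library), with a count in 97.0% and 97.8% of cells. CUSTOM_GFP stood at 97.5 and 105 CPM, with a count in 14.5% and 13.9% of cells. In the libraries labelled RFP+ the order was opposite, with CUSTOM_GFP at 606 and 582 CPM and CUSTOM_RFP at 134 and 136 CPM, in 19.9% and 18.9% of cells. Median depth was 1434 and 1374 counts per cell in the GFP+ labelled libraries against 1394 and 1440 in the RFP+ labelled ones, so depth was alike. S100a4, whose promoter drives Cre, stood at 1835 and 2087 CPM in the GFP+ labelled libraries against 633 and 683 in the RFP+ labelled ones, and Vim stood at 3174 and 3346 against 1920 and 1824. The epithelial keratin gene Krt18 stood at 363 and 372 against 991 and 1042 CPM. What the 2 reporter row names stand for was not tested, and cells are called here by their library's label only.

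The cells used held 2430453 and 2045844 counts, from 1000 to 9898 and from 1000 to 8270 per cell. They were 88.7% and 68.5% of the cells deposited for the 2 libraries. No barcode occurred in both libraries, while 4 and 1 pairs of barcodes within a library differed by 1 base. Cells just under the limit, with 950 to 999 counts, numbered 101 and 138, and those just over it, with 1000 to 1049, numbered 96 and 119. Marker genes held 0.946% and 0.899% of counts under the limit and 0.892% and 0.915% over it. Genes of immune and endothelial cells were nearly absent, at 23.9 and 27.4 CPM summed over the 9 of 21 immune markers that have a row, 6 and 5 of which were at 0. Endothelial markers, 8 of 12 with a row, summed to 21.8 and 18.6 CPM, and fibroblast markers, 9 of 14 with a row, to 93.0 and 98.7 CPM. The 2 of 6 erythroid markers with a row were at 0.

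The marker genes given for these cells were mostly present and mostly uneven. S100a4, a calcium-binding protein of motile cells, stood at 1835 and 2087 CPM, Vim, the mesenchymal intermediate filament, at 3174 and 3346, and Spp1, the secreted phosphoprotein osteopontin, at 2646 and 2593. Sparc, a matrix glycoprotein, had 734 and 732 CPM, and the membrane protein gene Emp3 had 155 and 149. Epithelial transcripts were there too: the 32 epithelial genes summed to 3685 and 3509 CPM, against 15497 and 16048 for 42 mesenchymal genes.

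Ribosomal protein genes made up 13 of the 25 most abundant transcripts, taken by the lower value of the 2 libraries. S100a6, a calcium-binding relative of S100a4, led with 8730 and 8823 CPM, followed by Actb (cytoplasmic actin) with 7883 and 8069 and Hsp90ab1 (a cytosolic chaperone) with 6309 and 6150. After them came Rplp1, the gene model Gm26924, Lgals1 (a galectin), Fth1 (ferritin heavy chain), Ncl (nucleolin) and Tpm1 (tropomyosin). Npm1, Pabpc1, Ybx1 and Vim were among the 25 too. These 25 genes held 10.95% and 11.29% of all counts, and 430 and 419 genes held 50% of them. Per kilobase of the longest transcript, 11 of the 25 stayed among the top 25, where 21 were ribosomal protein genes and S100a4 entered. The libraries agreed closely in level, with Pearson's r of log2 CPM of 0.993 across 4447 genes, which are not independent replicates, and 6 of these genes differed by more than 1.5-fold.

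To ask which genes varied from cell to cell beyond counting, each gene's counts were set against those expected from the cell's total and the gene's share of the library. The variation index is the mean of the squared difference over the expected count. It is 1 where only counting varies and each count is a separate molecule. Whether the counts are separate molecules is not given, and otherwise the base lies above 1. A gene was called where the index exceeded 1 by more than 5 times its counting spread in both libraries. Of 4447 genes with at least 0.05 counts per cell, 142 and 115 were called in the single libraries and 96 in both, 2.16% of those tested. The 96 were 67.6% and 83.5% of each library's calls. Between libraries the index of the 4447 genes had a Spearman's rho (r of ranks) of 0.399 and a Pearson's r of 0.938. Over the 4437 genes below 2 in both libraries Pearson's r was 0.570. Most genes varied little, with a median index of 1.07 and 1.06, and 8 genes reached 2 in both libraries. The call depends on level: none of 1454 genes (1541 in library 2) at 0.05 to 0.1 counts per cell was called, against 36 of 81 at 3 or more, so a gene that was not called may vary below what this depth shows. Set against genes of like level instead of against 1, 34 genes were called, and without the 5 most deviant cells of each gene, 46. With every cell thinned to 1000 counts, 28 were called, all of them among the 96.

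**Figure D1:**
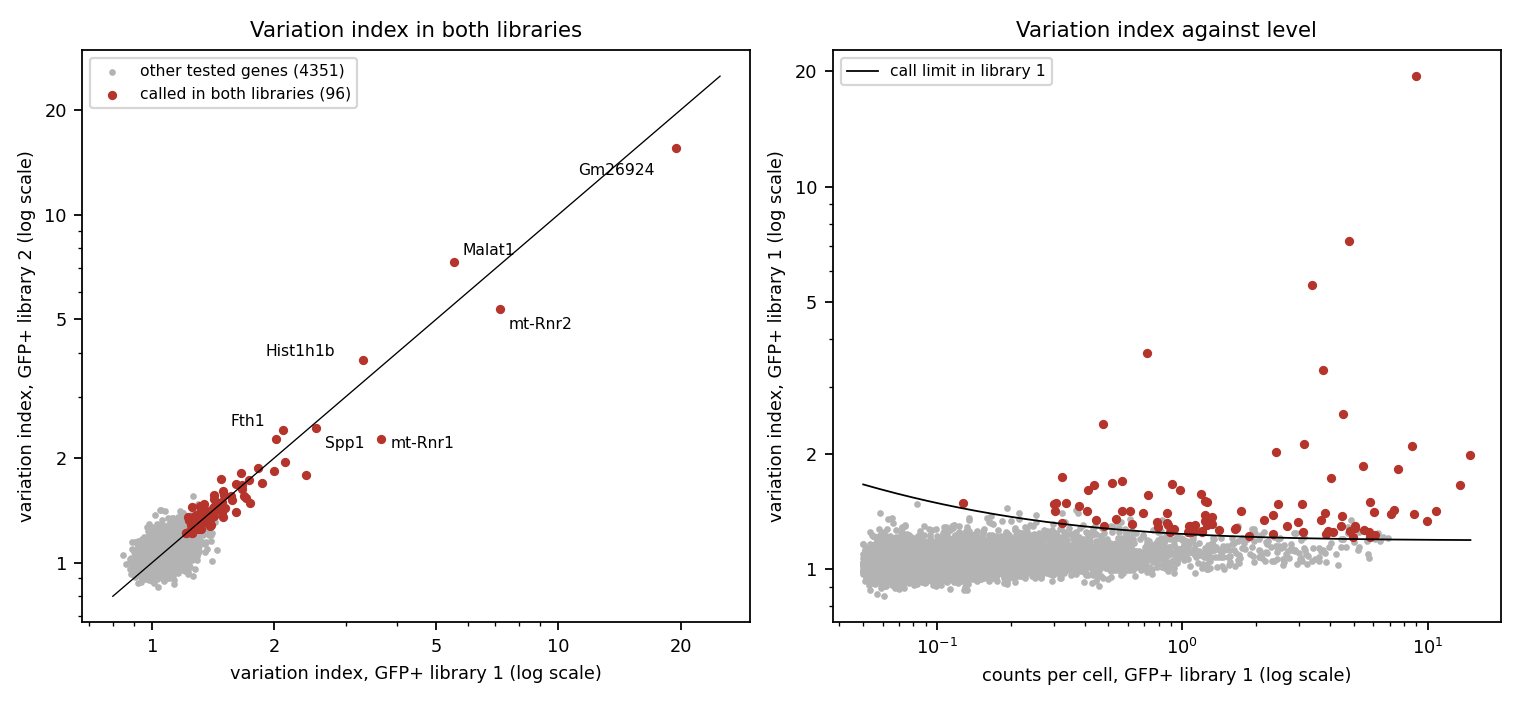
Left: variation index of 4447 tested genes in GFP+ library 1 (x axis) and library 2 (y axis), both on log scales, with the line of equality and the 96 called genes in red. Right: index in library 1 against counts per cell (log scales) with the call limit as a line. Called genes, which had to pass in both libraries, lie along the line of equality, and few lie at low counts.

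The most uneven transcripts in both libraries were Gm26924, Malat1 and mt-Rnr2. Gm26924, which has no entry in the annotation used and so no location here, had an index of 19.4 and 15.6, with up to 229 and 342 counts in a cell. Malat1, a nuclear long non-coding RNA at chr19:5795690-5802672, had 5.53 and 7.33. It was at 0 in 269 and 302 cells, where counting alone gives 86.4 and 84.5. The mitochondrial ribosomal RNAs mt-Rnr2 (7.19 and 5.35) and mt-Rnr1 (3.67 and 2.27) and the coding genes mt-Cytb (1.66 and 1.63) and mt-Nd1 (1.75 and 1.48) were called as well, so 4 of 7 tested mitochondrially encoded genes, against 2.16% of all genes tested. In thinned cells mt-Cytb and mt-Nd1 lost the call, with 1.29 and 1.26 in the lower library, and mt-Nd1 also lost it without its 5 most deviant cells. Depth moved with these: summed mitochondrial transcripts stood at 4796 and 4204 CPM in the shallower cells of each library and 3454 and 2944 in the deeper ones. Its part in the mitochondrial variation was not tested.

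Among coding genes, Hist1h1b led with 3.31 and 3.81. It codes for a linker histone made when DNA is copied. It was at 0 in 194 and 183 cells against 67.2 and 48.7 by counting, and reached 53 and 40 counts in a cell. Its relatives Hist1h1e (2.02 and 2.26) and Hist1h1d (1.48 and 1.49) followed. Spp1 had 2.54 and 2.43 and was at 0 in 109 and 106 cells, where 37.6 and 37.6 are expected. Per 1000 counts it ranged from 0 over a median of 2.36 and 2.23 to 17.4 and 13.7. S100a4 (2.12 and 1.95), S100a6 (1.99 and 1.84) and Vim (1.86 and 1.69) were called too, and S100a4 was at 0 in 200 and 129 cells against 104 and 69.9. Sparc passed with 1.31 and 1.33, whereas Emp3, at 1.05 and 1.18, did not. Thus 4 of 5 marker genes were called, against 2.16% of all genes tested and, at the 3 or more counts per cell of S100a4, Vim and Spp1, 36 of 81 in library 1. In cells thinned to 1000 counts Sparc, at 1.19 and 1.16, was under the call limit.

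**Figure D2:**
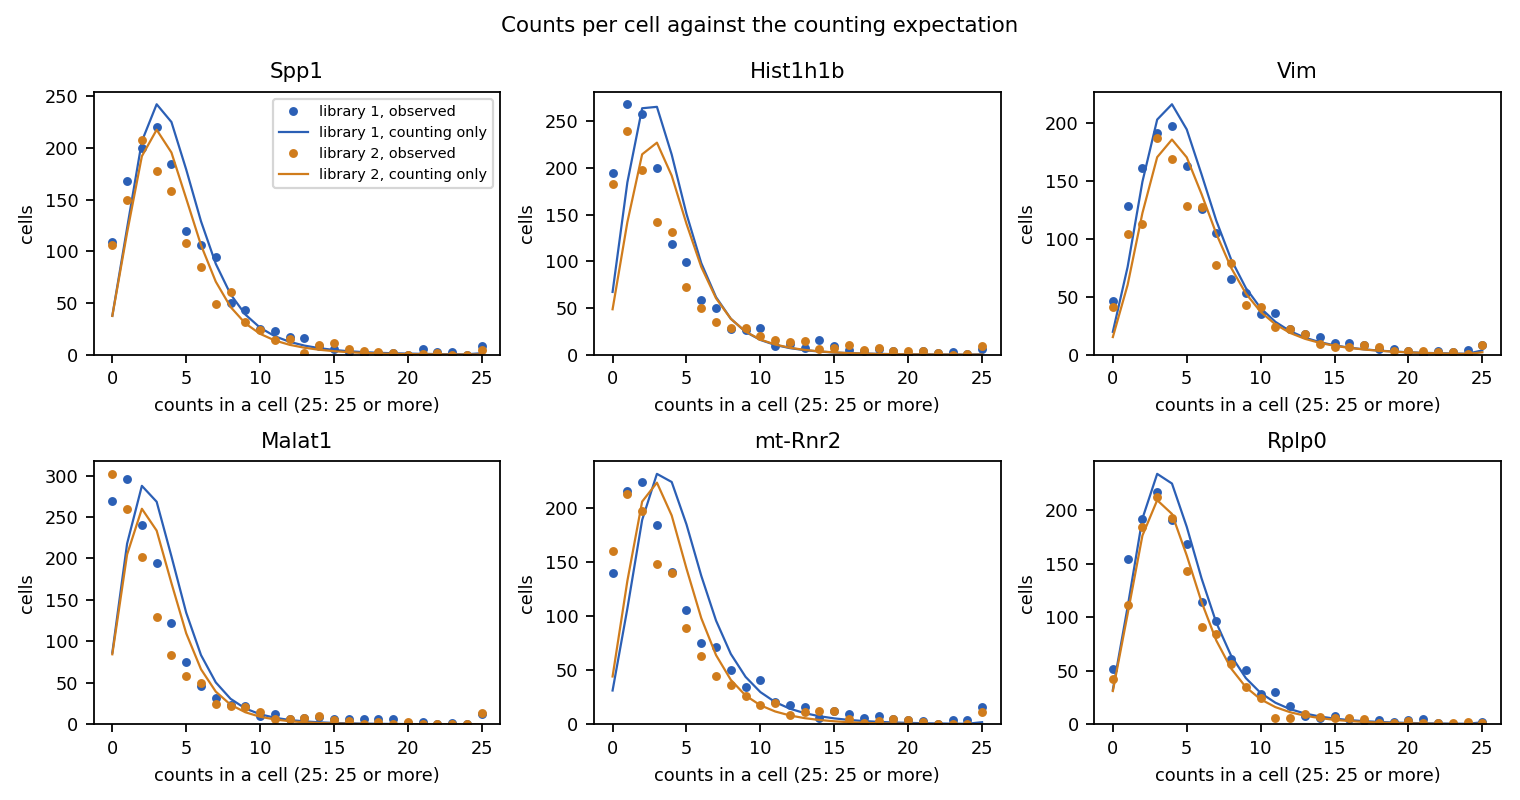
Cells (y axis) by their number of counts (x axis, 25 standing for 25 or more) for 6 genes; points are observed cells and lines the number expected from counting alone, blue for GFP+ library 1 and orange for library 2. Spp1, Hist1h1b, Malat1 and mt-Rnr2 have more cells at 0 and at high counts than the lines, while Rplp0 lies nearer to its lines.

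Fth1, which stores iron, had 2.10 and 2.40, Ncl, a nucleolar factor of ribosome assembly, 1.83 and 1.87, and Actb 1.66 and 1.80. The endoplasmic reticulum chaperones Hsp90b1 (1.73 and 1.73) and Hspa5 (1.48 and 1.74) and the integrin chain Itgb1 (1.48 and 1.48) were called. The matrix enzyme inhibitor Timp3 had 1.5 and 1.56. Epithelial genes were called as well: Wfdc2 (1.67 and 1.67), a secreted protease-inhibitor-like protein, and Epcam (1.47 and 1.49), an adhesion molecule. Ly6a (1.61 and 1.68), the surface antigen Sca-1, was called too and is not on the epithelial list. In thinned cells Epcam (1.34 and 1.20) and Ly6a (1.23 and 1.30) lost the call, and Wfdc2 kept it. The placental hormone relatives Prl2c3 (2.39 and 1.78) and Prl2c2 (1.49 and 1.60) are near-identical copies, so their counts may be split between them. Bod1l had 1.49 and 1.44 and lost the call in 5 of 13 other settings, as Prl2c2 did in 6 of 12. Genes of mitosis that passed included Prc1 (1.56 and 1.55), Cenpe (1.68 and 1.55), Cenpf (1.70 and 1.53), Arl6ip1 (1.57 and 1.51) and Top2a (1.51 and 1.44).

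Some genes with at least 1 count per cell were close to counting alone. They do not stand for the abundant genes, whose median index at 3 or more counts per cell was 1.21 and 1.21. The 10 steadiest genes with at least 1 count per cell had an index between 0.95 and 1.04 and included the ATP synthase genes Atp5f1, Atp5a1 and Atp5j2, Cox7a2 of the respiratory chain, Hmgn1, Anxa5, Eif4a3, Pcbp2, Rpl21 and Rpl34. Of 260 genes with at least 1 count per cell in both libraries, 63 were called. The genes nearest the call limit were Inhba, Npm1 and Ccnd1 inside, at 5.02 to 5.09 counting spreads in the weaker library, and Rps15a, Rps21 and H1f0 outside, at 4.94 to 4.99.

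By gene list, the share called was above the 2.16% of all tested genes in several lists, which also hold more abundant genes. Among 58 tested genes of G2 and mitosis 10 were called: Top2a, Mki67, Cenpe, Cenpf, Hmmr, Kif20b, Prc1, Anln, Arl6ip1 and Smc4. None of 44 tested genes of G1/S and DNA replication passed, and Atad2, picked out after values were seen, came highest at 1.21 and 1.21. Of 21 tested mesenchymal genes 8 passed (Vim, S100a4, Sparc, Tpm1, Timp3, Mgp, Cald1 and Cyr61), and of 14 epithelial genes 4 (Wfdc2, Epcam, Krt18 and Lgals3). Of 20 genes of the unfolded protein response 4 passed, of 45 genes of ribosome biogenesis 4, of 79 ribosomal protein genes 8 and of 9 clustered histones 3. None of 60 nuclear genes of oxidative phosphorylation, 13 of glycolysis and hypoxia or 9 of cholesterol synthesis passed. At 2.16% over all genes, lists of this size would hold few or no called genes, but the share rises with level. By level in library 1, 30 of 856 genes were called at 0.3 to 1 counts per cell, 28 of 194 at 1 to 3 and 36 of 81 at 3 or more. Ribosomal protein genes, with 10.1% called, summed to 285 counts per cell there. Lists were not matched for level. Summed over oxidative phosphorylation genes the index was above 1, at 1.67 and 1.59. Summed over glycolysis and hypoxia genes the index was 1.32 and 1.23, and over cholesterol synthesis genes 1.21 and 1.31. For the summed G1/S list it was 1.71 and 1.93. Summed over its 64 members, the mitotic list had an index of 4.76 and 4.98. Its share of a cell's counts ran from 0.0937% and 0.0381% over a median of 1.23% and 1.20% to 4.69% and 4.64%.

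To ask which genes varied together, the difference from the expected count was divided by the root of that count, and Pearson's r of these residuals was taken across the cells of each library. The cells of a library share its preparation, and r is a description with no p. Among 2836 genes with at least 0.1 counts per cell there are 4020030 pairs, and 45 (0.00112%) had r of at least 0.2 in both libraries. In the single libraries 82 and 74 pairs reached 0.2, and the 45 are 54.9% and 60.8% of them. Of the 82, 81 reached 0.1 in the other library. Over all pairs r had an SD of 0.0277 and 0.0296 and was close to unrelated between libraries (0.0760), whereas over the 4560 pairs of called genes the libraries agreed at 0.788. The 45 pairs join 47 genes into 14 groups, of which 6 have 3 or more genes. Of the 45 pairs, 8 share stretches of 50 bases between annotated transcripts and may share reads, as in Wdr89 with Rplp2, Tpm3-rs7 with Tpm3, Lrrc58 with Actb and Hist1h1d with Hist1h1e. These pairs are uncertain. With cells thinned to 1000 counts 4 pairs reached 0.2 in both libraries: Hist1h1b with Hist1h1e, and mt-Rnr2 with mt-Cytb, mt-Nd1 and mt-Rnr1.

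**Figure D3:**
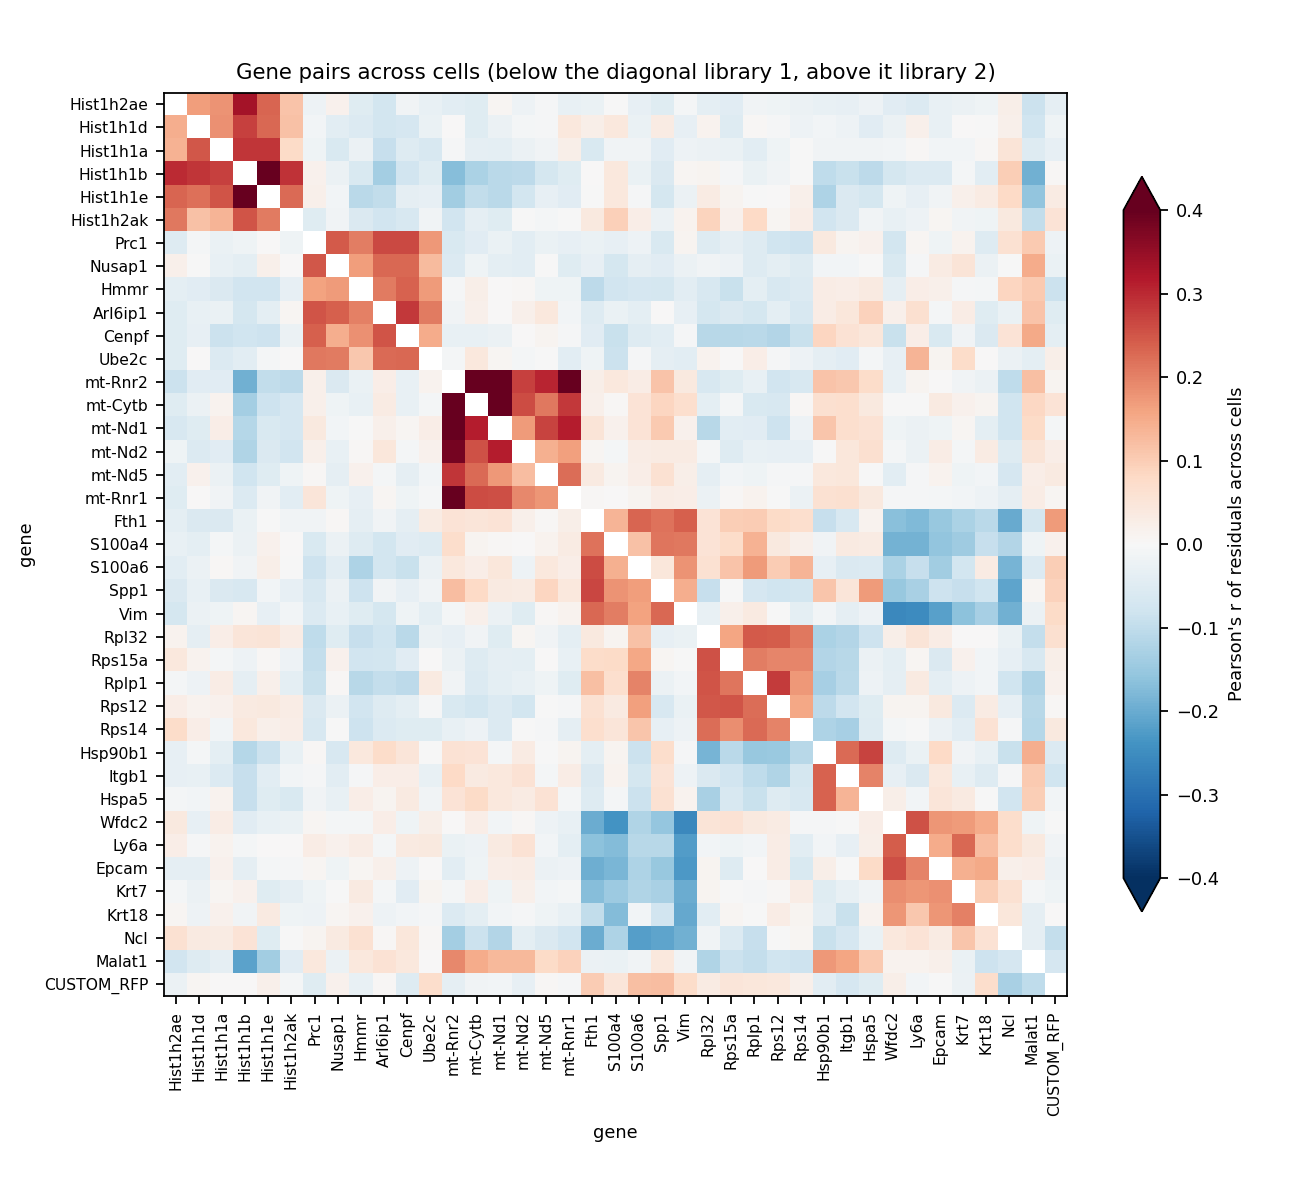
Pearson's r of residuals across cells for the genes of the 6 larger groups and 8 further genes (both axes), with GFP+ library 1 below the diagonal, library 2 above it, and colour running from -0.4 (blue) to 0.4 (red). Red blocks along the diagonal are the groups, blue blocks set Fth1, S100a4, S100a6, Spp1 and Vim against Wfdc2, Ly6a, Epcam, Krt7 and Krt18, and most of the CUSTOM_RFP row is pale.

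The strongest pair was Hist1h1b with Hist1h1e, at 0.489 and 0.553, in a group of 6 clustered histone genes with Hist1h1a, Hist1h1d, Hist1h2ae and Hist1h2ak. Histone messages are made in S phase, when new DNA is packed. In cells thinned to 1000 counts each, those with no Hist1h1b count had a mean of 0.913 and 0.856 Hist1h1e counts, and those with 3 or more had 1.97 and 2.29. The sum of the 33 histone genes in the table had r of 0.220 and 0.266 with the sum of the G1/S list. Malat1 ran the other way, with r of -0.215 and -0.192 to Hist1h1b, and went from a mean of 2.60 and 2.53 counts in cells without Hist1h1b to 1.35 and 1.4 in those with 3 or more. The mitochondrial mt-Rnr2 did so too, at -0.193 and -0.171, and had r of 0.193 and 0.120 with Malat1. Malat1 stood at 2197 and 2054 CPM in the shallower cells of each library and 1867 and 1870 in the deeper ones. The part of depth in these values was not tested.

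Another group held 6 genes of mitosis: Prc1 (spindle midzone), Nusap1 (spindle microtubules), Hmmr, Cenpf (kinetochore), Ube2c (ubiquitin transfer in mitotic exit) and Arl6ip1, an endoplasmic reticulum membrane protein. Arl6ip1 had 5 called pairs, the most in this group, and its r was 0.252 and 0.282 with Cenpf and 0.250 and 0.263 with Prc1. Cells without Arl6ip1 averaged 0.353 and 0.328 Prc1 counts, and those with 2 or more 0.643 and 0.730. The summed mitotic list ran against the summed ribosomal proteins, at -0.250 and -0.268. Ribosomal protein genes hold 166278 and 170335 CPM, and shares of a fixed total are not independent.

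Promoters of the mitotic group are shown because the genes shown lie on 4 chromosomes and share a letter pattern. The cell cycle homology region, TTTGAA, occurred on either strand in promoters of 4 of 6 genes (250 bases before to 50 after the start). Of all 32851 RefSeq mouse promoters (GRCm38.p6) 17.9% held it. CCAAT occurred in 5 of 6 against 37.4%. A gene counts where any of its promoters matches. Of the other patterns searched, TGCNCNC occurred in 5 of 6 against 51.0% and GAANNTTC in 0 of 6 against 7.86%. TTTCCCGC or TTTGGCGC occurred in 0 of 6 here and in the histone group, against 1.565%. Here 155 bases that end 20 bases after the start are given on the gene's strand, with both patterns in capitals, also where they stand on the opposite strand and so read reversed. They are Prc1 at chr7:80294316-80294470 (plus strand), Hmmr at chr11:40733418-40733572 (minus), Cenpf at chr1:189688067-189688221 (minus) and Ube2c at chr2:164769794-164769948 (plus).
Prc1: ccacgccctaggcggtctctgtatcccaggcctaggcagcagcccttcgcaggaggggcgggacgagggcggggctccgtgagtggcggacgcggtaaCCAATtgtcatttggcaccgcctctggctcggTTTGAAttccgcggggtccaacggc
Hmmr: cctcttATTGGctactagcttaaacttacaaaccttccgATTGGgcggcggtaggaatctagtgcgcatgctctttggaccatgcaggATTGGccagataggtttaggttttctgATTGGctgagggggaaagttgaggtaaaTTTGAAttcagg
Cenpf: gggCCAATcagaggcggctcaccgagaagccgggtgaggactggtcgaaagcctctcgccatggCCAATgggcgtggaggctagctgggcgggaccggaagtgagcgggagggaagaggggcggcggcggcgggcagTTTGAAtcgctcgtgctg
Ube2c: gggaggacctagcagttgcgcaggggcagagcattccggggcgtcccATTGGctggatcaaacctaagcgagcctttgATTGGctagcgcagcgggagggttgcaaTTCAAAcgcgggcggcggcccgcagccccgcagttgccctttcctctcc
TTTGAA stands close to the start in all 4. Nusap1 and Arl6ip1 have no match in their window, which says nothing of the factor that binds it.

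The histone group lies on chromosome 13, and its promoters all hold CCAAT (6 of 6). TTTGAA occurred in 4 of these 6 as well, the same count as in the mitotic group. For 3 linker histones the 150 bases before the start are given, with CCAAT, on either strand, and AAACACA in capitals. AAACACA is an element known from linker histone promoters, searched here after the sequences were seen. It occurred in 3 of the 6 promoters and in 7.18% of all. The stretches are Hist1h1b at chr13:21780626-21780775 (minus strand), Hist1h1e at chr13:23622559-23622708 (minus) and Hist1h1d at chr13:23554882-23555031 (plus).
Hist1h1b: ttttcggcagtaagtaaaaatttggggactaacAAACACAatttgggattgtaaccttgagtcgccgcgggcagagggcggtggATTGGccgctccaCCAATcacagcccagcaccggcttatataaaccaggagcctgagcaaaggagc
Hist1h1e: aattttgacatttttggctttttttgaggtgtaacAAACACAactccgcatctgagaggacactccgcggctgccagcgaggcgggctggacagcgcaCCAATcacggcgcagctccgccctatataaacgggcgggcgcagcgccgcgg
Hist1h1d: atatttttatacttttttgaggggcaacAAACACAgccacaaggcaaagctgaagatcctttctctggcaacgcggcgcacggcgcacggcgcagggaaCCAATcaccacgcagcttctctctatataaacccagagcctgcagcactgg
The order of the elements is the same in the 3 genes, with AAACACA farther from the start than CCAAT. Hist1h1a, also a linker histone of the group, has CCAAT and no AAACACA in its window.

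The next group was mitochondrial. mt-Rnr2 had r of 0.453 and 0.478 with mt-Cytb, 0.452 and 0.471 with mt-Nd1 and 0.419 and 0.490 with mt-Rnr1, and mt-Nd2 and mt-Nd5 joined them. These genes are made from the same circular genome as long precursors. Cells with up to 1 mt-Rnr2 count averaged 0.102 and 0.0989 mt-Cytb counts, and those with 5 or more 0.582 and 0.589. The nuclear genes of oxidative phosphorylation formed no group, and their sum ran with ribosomal proteins instead (0.405 and 0.376).

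A further group joined 3 of the marker genes, S100a4, Spp1 and Vim, with Fth1 and S100a6. Fth1 was its hub, with r of 0.260 and 0.233 to S100a6, 0.230 and 0.241 to Vim and 0.266 and 0.217 to Spp1, and S100a4 joined through Vim (0.206 and 0.212). Sparc stayed under 0.2, at 0.142 and 0.134 with Vim, and is no member of the group. Cells without Spp1 averaged 4.18 and 4.25 Fth1 counts and 2.52 and 2.60 Vim counts, and those with 4 or more averaged 5.80 and 6.16 Fth1 and 3.65 and 3.51 Vim counts. S100a4 and S100a6 are neighbours on chromosome 3, at 90603771 and 90612882, but their own pair, at 0.143 and 0.117, was not called. CUSTOM_RFP had weak values with this group: 0.10 and 0.171 with Fth1, 0.123 and 0.0930 with Spp1 and 0.120 and 0.0985 with S100a6. With Vim it had 0.0728 and 0.0764, and with S100a4 0.0491 and 0.0187.

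The other groups were small. There were 5 ribosomal protein genes, Rpl32, Rplp1, Rps12, Rps14 and Rps15a, in a group whose called pairs had r up to 0.252 and 0.281. Hsp90b1 and Hspa5, chaperones of the endoplasmic reticulum lumen, went together at 0.236 and 0.270, with Itgb1 joined to Hsp90b1 at 0.236 and 0.228. CCAAT, a part of the known endoplasmic reticulum stress element, occurred in the promoters of both chaperone genes and not in that of Itgb1, so in 2 of 3 against 37.4% of all promoters. Of the chaperone promoters 200 bases from -230 to -31 are shown with CCAAT in capitals on either strand. They are Hspa5 at chr2:34771860-34772059 (plus strand) and Hsp90b1 at chr10:86705475-86705674 (minus).
Hspa5: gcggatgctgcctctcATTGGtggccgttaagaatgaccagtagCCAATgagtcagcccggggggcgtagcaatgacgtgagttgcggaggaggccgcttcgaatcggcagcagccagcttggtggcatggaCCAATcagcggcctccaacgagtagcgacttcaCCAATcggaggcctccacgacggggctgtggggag
Hsp90b1: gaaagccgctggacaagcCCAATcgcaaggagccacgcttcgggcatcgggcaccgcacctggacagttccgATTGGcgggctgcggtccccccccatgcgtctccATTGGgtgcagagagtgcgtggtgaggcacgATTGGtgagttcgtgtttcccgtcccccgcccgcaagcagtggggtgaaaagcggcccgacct
Each stretch holds 4 matches. The summed unfolded protein list ran against ribosomal proteins, at -0.303 and -0.309.

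The clearest opposition within the GFP+ labelled cells was between epithelial and mesenchymal genes. In all, 104 pairs (0.00259%) had r of at most -0.1 in both libraries (24 with thinned cells), and by the weaker library the 3 most negative were Vim with Wfdc2 (-0.257 and -0.258), with Ly6a (-0.223 and -0.251) and with Epcam (-0.230 and -0.218). S100a4 with Wfdc2 had -0.239 and -0.190, and S100a4 with Ly6a -0.174 and -0.190. Of 14 epithelial genes 13 had a negative r to Vim in both libraries, with a median of -0.0786 and -0.0965, and the exception was Cd24a at 0.055 and 0.024. Ly6a is not on the epithelial list, but went together with Wfdc2 at 0.243 and 0.254. The summed lists stood at -0.386 and -0.380, the largest in size of 210 list pairs by the weaker library.

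In counts, the opposition was read over classes of cells by Wfdc2. Wfdc2 averaged 0.512 and 0.476 counts per thinned cell, so counting alone moves cells between these classes. Whether the shift is gradual was not tested. Thinned to 1000 counts, 908 of the cells in library 1 and 826 in library 2 had no Wfdc2 count, 465 and 365 had 1 or 2, and 46 and 42 had 3 or more. Vim averaged 3.47 and 3.46 counts in the first of these classes, 2.79 and 3.02 in the middle one and 2.41 and 2.0 in the last. S100a4 went from 2.11 and 2.23 over 1.61 and 1.81 to 0.957 and 1.21. Epcam went from 0.15 and 0.183 to 0.391 and 0.381, and Ly6a from 0.169 and 0.178 to 0.522 and 0.524. Vim thus had a count in most cells of each class, with 87.0% and 81.0% in the last. The reporter rows gave no order that both libraries shared. CUSTOM_GFP averaged 0.0815, 0.112 and 0.0870 counts over the 3 classes in library 1 and 0.0860, 0.110 and 0.214 in library 2, with a count in 21.4% of the 42 cells of the last class there against 7.75% in the first. CUSTOM_RFP averaged 2.93 and 3.11 counts in the first class and 3.13 and 2.83 in the last, and its r to Wfdc2 was 0.0243 and -0.000424. The 14 epithelial genes had a median r to CUSTOM_RFP of 0.0152 and 0.00158, and 4 of them were negative in both libraries.

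**Figure D4:**
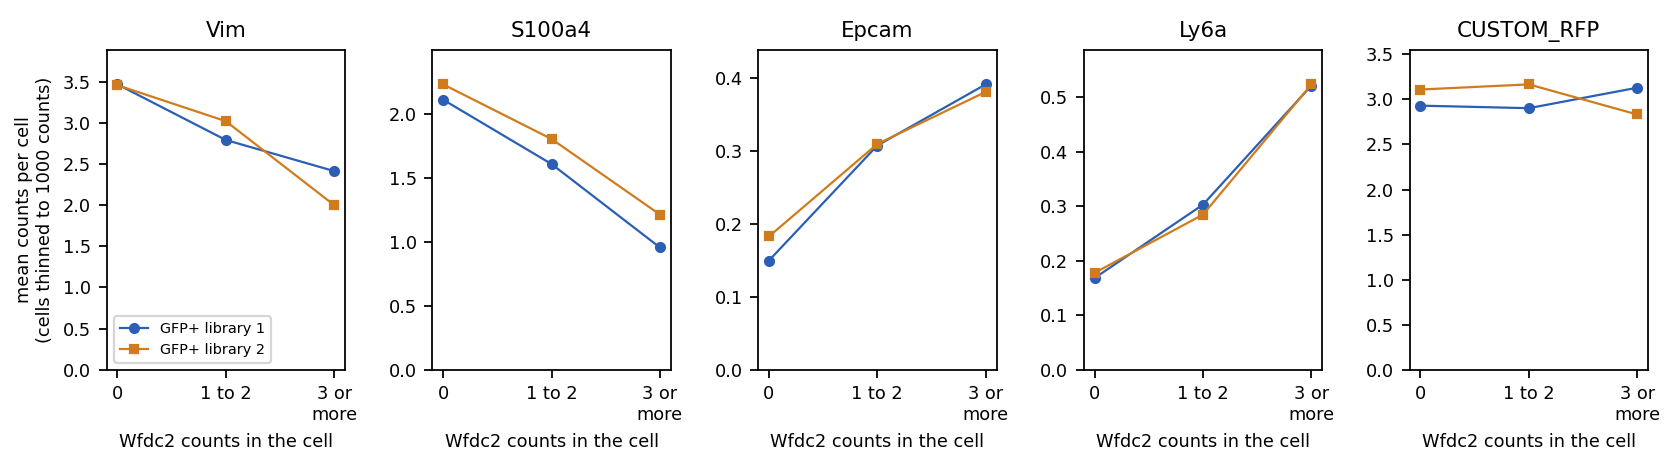
Mean counts per cell (y axes, each from 0) of Vim, S100a4, Epcam, Ly6a and CUSTOM_RFP in cells with 0, 1 to 2, or 3 or more Wfdc2 counts (x axes), after thinning each cell to 1000 counts, with blue circles for GFP+ library 1 and orange squares for library 2. Vim and S100a4 are lower and Epcam and Ly6a higher in cells with more Wfdc2, and CUSTOM_RFP stays between 2.83 and 3.17.

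A further opposition set the marker group against nucleolar genes. Ncl had 13 negative pairs, more than any other gene, among them Spp1 (-0.210 and -0.211), Fth1 (-0.200 and -0.201), Vim (-0.192 and -0.191) and S100a6 (-0.221 and -0.187). Ncl averaged 5.17 and 4.87 counts in cells without Spp1 and 3.88 and 4.12 in those with 4 or more. The summed ribosome biogenesis list had r of -0.362 and -0.340 with the 5 markers, and 0.309 and 0.273 with the heat shock and chaperone list.

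The same pairs were read in the libraries labelled RFP+, which took no part in choosing them. All 45 positive pairs had r of at least 0.1 in both, and 36 of at least 0.2. Hist1h1b with Hist1h1e had 0.577 and 0.524 there, and Vim with Wfdc2 -0.254 and -0.235. Of the 104 negative pairs 57 were at -0.1 or less in both. To ask whether any gene varied more or less in GFP+ labelled cells, the log2 index of 2896 genes was compared between the 2 GFP+ and the 2 RFP+ labelled libraries with limma, on cells thinned to 1000 counts. No gene passed an adjusted p of 0.05, so 0% were higher and 0% lower. By unadjusted p 191 genes were under 0.05, or 6.60%, with 64 higher and 127 lower. The lowest adjusted p in limma was 0.183, for Stag2, so named after values were seen (1.21 and 1.16 against 1.02 and 0.946). With limma's spread modelled on level instead of on the index, a choice made after seeing the data, 6 genes passed. Gm26924 and Stag2 were more variable in the GFP+ labelled cells, and mt-Rnr2, Malat1, Fth1 and Rplp1 less. The index grows with level where the relative spread is the same, and levels differed too. mt-Rnr2 had an index of 4.29 and 3.51 against 5.68 and 5.95, at 3.04 and 2.64 counts per thinned cell against 5.02 and 4.87. Malat1 had an index of 3.57 and 4.31 against 5.33 and 5.61, and Rplp1 of 1.19 and 1.28 against 1.45 and 1.56. Gm26924 had 14.8 and 8.62 against 6.05 and 6.69, so its 2 GFP+ labelled libraries lay far apart. In the planned limma fit its adjusted p was 0.851. Malat1 stood at 2.08 and 1.99 counts against 2.33 and 2.37, and Rplp1 at 5.83 and 5.99 against 6.27 and 6.61. Gm26924 stood at 5.28 and 5.49 against 4.11 and 4.56, and Stag2 at 0.139 and 0.140 against 0.101 and 0.0977. For these 5 genes index and level thus differed in the same direction, and the part of level was not tested. Fth1 had an index of 1.60 and 1.83 against 2.24 and 2.38, at the higher level of 5.07 and 5.38 counts against 4.57 and 4.69.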

How the data were processed

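Values are raw counts for each gene in each cell barcode, as deposited. Per the labels they come from Drop-seq and Nextera libraries. GRCm38 is the build in the submitters' processing notes. Aligner, counter, collapsing of molecular identifiers and cell selection: not given in the sources used here. Each library's 2 lanes share its columns, so the library was the replicate, with 2 per population. No label names separate cultures, and p-values thus reflect spread among libraries, which may be technical. Cells with at least 1000 counts were used, and doublets were not removed. Index, residuals and r were computed in Python 3.11.15, and the difference in index with limma 3.58.1 on log2 index with Benjamini-Hochberg adjustment. Scripts were tested on simulated data. The members and lists were chosen with earlier results of these data known. Named genes were the 25 most abundant, the 30 called genes with the largest lower index and the 10 steadiest (gene models left out of the last 2 sets), the 25 positive and 10 negative pairs largest in the weaker library, the leading genes of each group of 3 or more, the 4 leading called members of each list, markers and reporters. Other genes were named after their values were seen. Other limits, depths and filters were tried.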

Additional observations from a re-analysis of the deposited data

How the results depend on the processing

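Called genes numbered 96. They were 28 with cells thinned to 1000 counts, 46 without each gene's 5 largest residuals, 34 relative to genes of like level, 238 at 3 counting spreads and 23 at 10. In a single library, without replicate 1 or 2, they were 115 to 142. Other cell limits, depth measures and level filters gave 68 to 102. Positive pairs numbered 45. They were 124 in cells of at least 1500 counts, 4 in thinned cells, 84 with depth taken without ribosomal and mitochondrial genes, 144 at r of at least 0.15, 5 at 0.3 and 26 among genes with at least 0.3 counts per cell, and 74 to 82 in a single library. Negative pairs numbered 104. They were 69 with cells of at least 500 counts, 789 at 1500, 24 in thinned cells, 69 on a log2 scale and 646 to 948 in a single library. The cause of these changes was not tested. In limma 0 genes differed in index in either direction. With cell totals in place of thinning 1 was lower. Leaving out a library gave 0 to 1: 1 higher without GFP+ replicate 2 and 1 lower without RFP+ replicate 1, where the lone library is assumed to vary like the others. With the spread modelled on level, added after seeing the data, 2 were higher and 4 lower. Of 389 values for named genes 363 kept their call and 26 lost it, and of 421 for named pairs 373 kept it and 48 lost it, with 0 reversed. These tallies include settings that could not lose a call: a single library, a looser limit or a level filter. A reversal was possible for pairs only. In thinned cells 36 of 62 values kept their call and 26 lost it. No paired analysis was possible because the replicate numbers in the labels are lanes of a library, pooled in the deposited columns. Depth limits calls to genes of moderate or high level.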
